A study of Mus musculus with 15 samples.

Results

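Acyl-CoA synthetases join a fatty acid to coenzyme A, the step that commits it to oxidation, to storage as lipid or to incorporation into membranes. The account covers 10 of their genes, chosen by name from the 13602 gene symbols of the count table: the long-chain synthetases Acsl1, Acsl3, Acsl4, Acsl5 and Acsl6, the synthetase family members Acsf2 and Acsf3, the mitochondrial acetate enzyme Acss1, and the fatty acid transport proteins Slc27a1 and Slc27a4, which take up and activate long-chain fatty acids. All 10 were in the table and all 10 passed the filter on low counts, so they stood among 11062 tested genes. Tags were counted in gastrocnemius, a calf muscle of mainly fast fibres, from 7 male mice with a skeletal muscle-specific Cpt1b knockout and from 8 male mice described as floxed wild type. Cpt1b is the muscle carnitine palmitoyltransferase 1, which passes activated long-chain fatty acids on to carnitine for entry into the mitochondrion. The labels name neither the Cre driver nor the age of the mice. Titles and protocol give chow feeding for 12 to 14 weeks, while the diet field of all 15 samples, knockout and control alike, reads 45% HFD. Each library was taken as 1 mouse, since the protocol counts as many mice as libraries.

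Activation of a fatty acid uses ATP and proceeds through an acyl-adenylate, and the resulting acyl-CoA cannot cross membranes freely. Where the enzyme sits therefore bears on the fate of its product: in muscle and heart the ACSL1 protein is the main long-chain synthetase and is tied to mitochondrial oxidation, whereas ACSL3 is known from the endoplasmic reticulum and lipid droplets. Acyl-CoA made outside the mitochondrion passes through carnitine palmitoyltransferase 1, of which the muscle isoform is deleted here, while medium-chain and short-chain acids can be activated inside the mitochondrion without it.

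The measurement is serial analysis of gene expression (SAGE), which reads 1 short tag per transcript from close to its 3′ end, so a level does not scale with transcript length. The labels do not name the anchoring enzyme. Under the usual anchoring site CATG, the tag nearest the 3′ end of each member's principal GENCODE M21 transcript (GRCm38) was predicted, and 27 bases are shown for the 4 members that differed between the groups and for Slc27a4, with the anchoring site in capitals, because these letters are what a count of each gene would stand for.
Acsf2: CATGcaaataaatcaaaacaaatccgt
Acsl1: CATGggtacttattaaaatggacagta
Acss1: CATGtgatggacgtggctgagtatagt
Slc27a1: CATGtcagctgggagacacgcgcagtc
Slc27a4: CATGagtccagaggcctcagaatcccc
None of the 10 predicted tags occurred in a GENCODE transcript of any other gene. The Acsf2 tag lies at chr11:94557105-94557131 on the minus strand, 30 bases from the transcript end and outside the opposite-strand gene Chad, which overlaps Acsf2. The Acsl1 tag lies at chr8:46535534-46535560, the Acss1 tag at chr2:150618212-150618238 on the minus strand, the Slc27a1 tag at chr8:71586471-71586497 and the Slc27a4 tag at chr2:29817282-29817308, all in 3′ untranslated exons. The tag of Acsl5 lies inside the opposite-strand gene Zdhhc6, and whether the authors' counting used strand is not given in the sources used here, so the Acsl5 level is less certain. Acsf3 lies wholly inside the same-strand gene Gm20388 (chr8:119910841-124345722), whose span holds its tag, though no transcript of Gm20388 does. Whether tags were assigned by gene span or by transcript is not given, so the Acsf3 level is less certain even with counting by strand. Acsl1, Acsl3 and Acsl6 had more than 1 predicted tag among their coding transcripts, and how the authors joined such tags is likewise not given.

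Libraries held 8334436 to 19397255 counts. Control replicate 7 and knockout replicate 4 stood farthest along the leading principal component (44.6% of the variance of log2 CPM). Fold changes of the 4 members that differed between the groups are given with and without these libraries. Cpt1b itself averaged 3.79 ± 1.64 CPM in knockout and 7.64 ± 3.17 CPM in control libraries (SD, n = 7 and n = 8). Its log2 fold change of -1.03 ± 0.31 (SE) did not pass over all genes (edgeR adjusted p = 0.103). The deleted part of the gene is not named, so a tag near the 3′ end need not check the genotype. Levels are CPM, tag counts scaled to a common library total after TMM adjustment. Fold changes are log2 values of knockout over control with their standard errors, and p-values come from edgeR's quasi-likelihood test with Benjamini-Hochberg adjustment over all 11062 genes at a threshold of 0.05.

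Activation genes rose in part. Of the 10 members 4 rose in knockout muscle, Acsf2, Acss1, Acsl1 and Slc27a1, and none fell, by edgeR. The members were chosen with earlier results of these data known, so the count describes this set alone. None of 4 other synthetase genes tested was called. Of all tested genes 1.67% were called higher, 0.497% lower and 2.17% in either direction. At an unadjusted p below 0.05, which 13.6% of all tested genes reached, edgeR placed 5 members higher and 0 lower. DESeq2 called 4 members higher and 0 lower, with 3.41% of all genes called in either direction, and limma voom called 3 higher and 0 lower, with 2.11% of all genes called. The median log2 fold change of the members was 0.23, against 0.0047 over all tested genes, and 8 of the 10 were positive, where 50.6% of all tested genes were. In whole muscle, more RNA per fibre and more cells of an expressing type cannot be told apart.

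**Figure D1:**
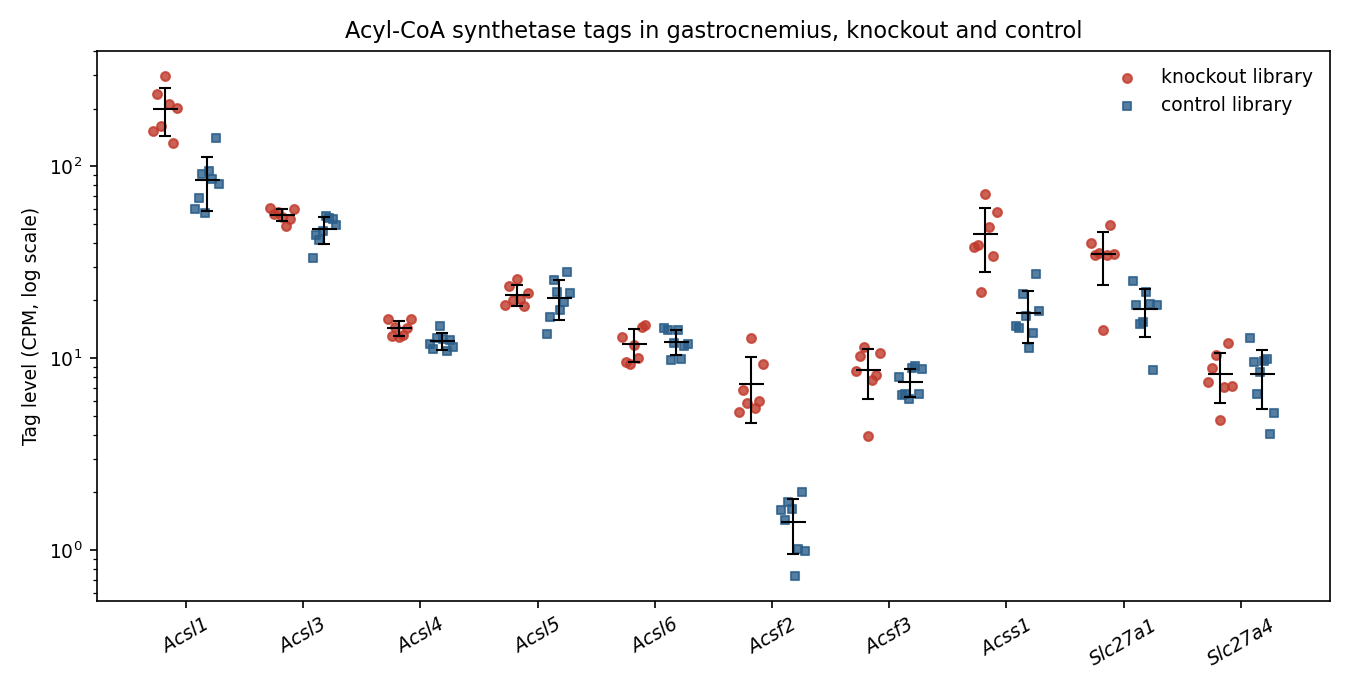
Tag levels of the 10 members in CPM on a log axis, with a point for each of the 7 knockout (circles) and 8 control (squares) libraries; black bars give the mean ± SD. The Acsf2 points of the knockout libraries (5.25 to 12.8 CPM) all lie above those of the controls (0.734 to 2.02 CPM), whereas the Acsl6 and Slc27a4 points of both groups cover each other.

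Acsf2, a mitochondrial member of the family known for activating medium-chain acids (chr11:94557102-94601871), changed most. Its level ran from 5.25 through a median of 6.01 to 12.8 CPM in knockout libraries, against 0.734 through 1.53 to 2.02 CPM in control libraries. Every knockout library was above every control library, and Acsf2 was the only 1 of the 10 members for which the groups did not overlap, a state reached by 1.19% of all tested genes, or 0.967% with the knockouts above. The log2 fold change was 2.38 ± 0.25, a 5.21-fold difference (edgeR adjusted p = 9.43e-06, rank 18 by p among all tested genes). Its tags were few, 54 to 268 per knockout library and 9 to 38 per control library, and the highest value in each group came from the libraries that stood apart, knockout replicate 4 at 12.8 CPM and control replicate 7 at 2.02 CPM. Without both libraries the log2 fold change was 2.29.

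The window around the start of Acsf2 is shown because it is the member with the largest change. It surrounds the RefSeq start (GRCm38.p6, chr11:94601737-94602036, minus strand), with matches to GGGCGG, the GC box, in capitals on either strand, overlapping matches included.
Acsf2 start: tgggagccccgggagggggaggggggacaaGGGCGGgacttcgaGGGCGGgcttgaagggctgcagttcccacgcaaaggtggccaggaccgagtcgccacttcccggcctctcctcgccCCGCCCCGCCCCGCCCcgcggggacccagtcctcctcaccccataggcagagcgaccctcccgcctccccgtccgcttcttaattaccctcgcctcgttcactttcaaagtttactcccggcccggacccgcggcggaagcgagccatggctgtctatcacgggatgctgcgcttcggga
It held 5 such matches, and 35.7% of 32851 RefSeq windows of that length held at least 1. The share of windows with 5 was not counted. Among other members, a window of Acsl1 held 7 and that of Acsl3, which was not called, held 5. The windows of Acsl5 and Acsf3 held 0. The receptors of the PPAR family bind a direct repeat of AGGTCA. Searched on both strands, AGGTCANAGGTCA and its looser form AGGNCANAGGNCA were in no window of any member, and were in 0.0396% and 0.381% of all windows. AGGTCA alone, in 16.3% of all windows, was found among the members in a window of Acsl6 only. These letters being absent from a short window says nothing about the factor.

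Acsl1, the long-chain synthetase that prevails in muscle, heart and fat (chr8:46471037-46536051), was the most abundant member in every library. It ran from 133 through 201 to 296 CPM in knockout libraries and from 56.8 through 83.3 to 141 CPM in control libraries. The groups met in a single library: control replicate 7, at 141 CPM, lay above knockout replicate 6, at 133 CPM, and the other 7 controls, at most 94.7 CPM, lay below all knockouts. The log2 fold change was 1.23 ± 0.20, a 2.35-fold difference (edgeR adjusted p = 0.00153), and it stood at 1.24 without control replicate 7 and knockout replicate 4. Acsl1 averaged 199 ± 56.1 CPM in knockout libraries and 84.9 ± 26.6 CPM in control libraries, the largest difference in CPM among the 10 members.

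Acss1, which makes acetyl-CoA from acetate in the mitochondrial matrix (chr2:150618105-150668500), rose by a similar factor. Its level ran from 22.0 through 38.7 to 71.3 CPM in knockout libraries and from 11.3 through 15.7 to 27.4 CPM in control libraries. Knockout replicate 3, at 22.0 CPM, lay below control replicate 7, at 27.4 CPM, and the other 6 knockouts lay above all controls. The log2 fold change was 1.37 ± 0.23, a 2.58-fold difference (edgeR adjusted p = 0.00174), and 1.33 without the libraries that stood apart.

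Slc27a1, the insulin-responsive fatty acid transport protein 1 of muscle and fat (chr8:71568882-71587302), was the least certain of the called members. It ran from 14.0 through 35.1 to 49.5 CPM in knockout libraries and from 8.70 through 18.9 to 25.3 CPM in control libraries. All knockouts but replicate 4 (14.0 CPM) lay above all controls, between 34.4 and 49.5 CPM, and replicate 4 lay below 7 of the 8 controls. The log2 fold change was 0.95 ± 0.23, a 1.93-fold difference (edgeR adjusted p = 0.0336). The call was lost in 11 of the 15 fits without 1 library, those without knockout replicate 1, 2, 3, 5, 6 or 7 or control replicate 2, 3, 4, 6 or 8 (adjusted p = 0.0581 to 0.0743), while the log2 fold change stayed between 0.85 and 1.09. Without both libraries that stood apart it was 0.98 (edgeR adjusted p = 0.000278), and limma voom on all libraries did not call it (adjusted p = 0.0587).

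**Figure D2:**
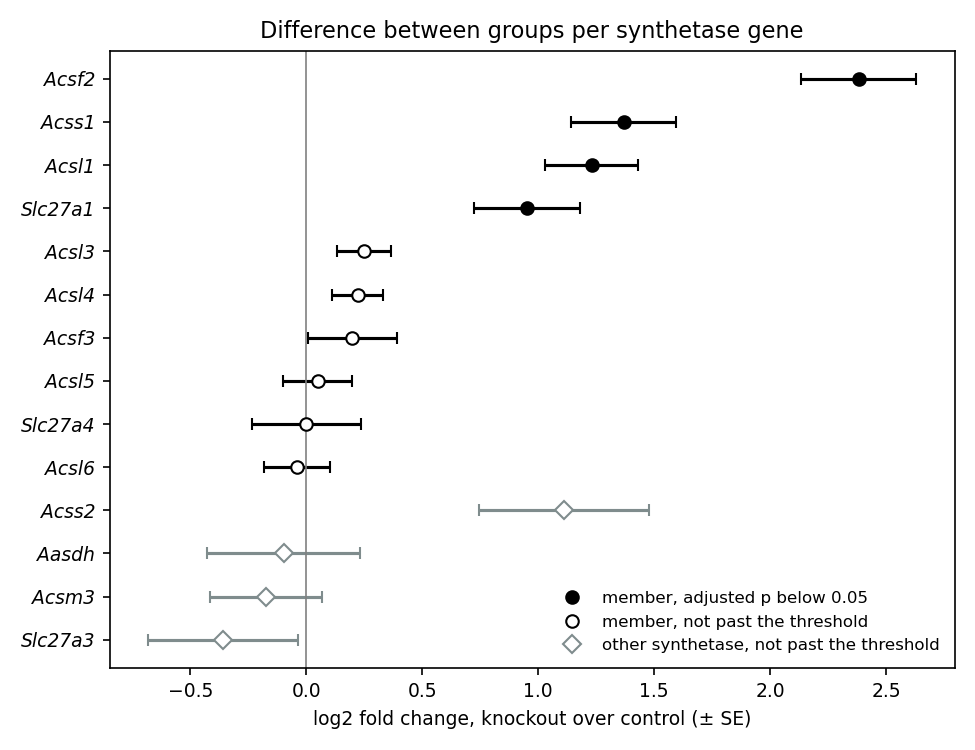
Log2 fold change of knockout over control with its standard error for the 10 members (circles) and for the 4 other synthetase genes tested (diamonds); filled symbols passed an adjusted p of 0.05. The 4 called members lie between 0.95 and 2.38, and the other 6 members between -0.04 and 0.25.

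The other 6 members did not pass the test, and their intervals bound what these libraries could show. Acsl3, the second most abundant member in both groups (chr1:78657825-78707743), averaged 55.9 ± 4.15 CPM in knockout and 47.0 ± 7.48 CPM in control libraries. Its log2 difference of 0.25 ± 0.12 had an unadjusted p of 0.0472 and an edgeR adjusted p of 0.362. Acsl3 overlaps Utp14b on the same strand, and its predicted tag lies outside that gene. Acsl4, which prefers arachidonic acid (chrX:142317993-142390535), averaged 14.3 ± 1.30 CPM in knockout and 12.3 ± 1.23 CPM in control libraries, a log2 difference of 0.22 with an approximate 95% interval of -0.01 to 0.45.

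Acsl5, found on mitochondria and endoplasmic reticulum (chr19:55251938-55297720), stood at 21.3 ± 2.59 CPM in knockout and 20.6 ± 4.85 CPM in control libraries, with an interval of -0.27 to 0.37 for the log2 difference. Acsl6, known best from brain (chr11:54303798-54364756), stood at 11.8 ± 2.34 CPM in knockout and 12.2 ± 1.78 CPM in control libraries, with an interval of -0.35 to 0.27. For both genes a change as large as that of Acsl1 lies outside the interval. Acsf3, the mitochondrial malonyl-CoA synthetase (chr8:122775486-122817880), averaged 8.65 ± 2.50 CPM in knockout and 7.52 ± 1.27 CPM in control libraries, a log2 difference of 0.20 ± 0.19. Slc27a4, fatty acid transport protein 4 (chr2:29802634-29817522), averaged 8.25 ± 2.39 CPM in knockout and 8.26 ± 2.84 CPM in control libraries, with an interval of -0.51 to 0.51 for the log2 difference.

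The order of the members differed in places between the groups. In knockout libraries it ran Acsl1, Acsl3, Acss1, Slc27a1, Acsl5, Acsl4, Acsl6, Acsf3, Slc27a4 and Acsf2, and in control libraries Acsl1, Acsl3, Acsl5, Slc27a1, Acss1, Acsl4, Acsl6, Slc27a4, Acsf3 and Acsf2. Acsl1 was above Acsl3 in 7 of 7 knockout and 8 of 8 control libraries, and in controls Acsf2 was below Acsf3 in 8 of 8. Several neighbours did not differ beyond their spread: Acss1 was above Slc27a1 in 4 of 7 knockout libraries, and Acsl4 above Acsl6 in 4 of 8 control libraries.

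Added together, the 10 genes held 406 ± 59.6 CPM in knockout and 229 ± 32.2 CPM in control libraries. Acsl1 made up 64.9% ± 6.38 of the tags of the 5 Acsl genes in knockout libraries and 47.2% ± 5.63 in control libraries, and Acsl3 made up 19.0% ± 3.75 in knockout and 26.9% ± 3.30 in control libraries. The share of Acsl5 was 7.13% ± 0.55 in knockout and 11.7% ± 1.90 in control libraries, and all 7 knockout libraries (6.43% to 8.05%) lay below all controls (9.14% to 14.5%). These shares restate the levels above as a make-up, since 1 share must fall where another rises, and they were not tested.

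**Figure D3:**
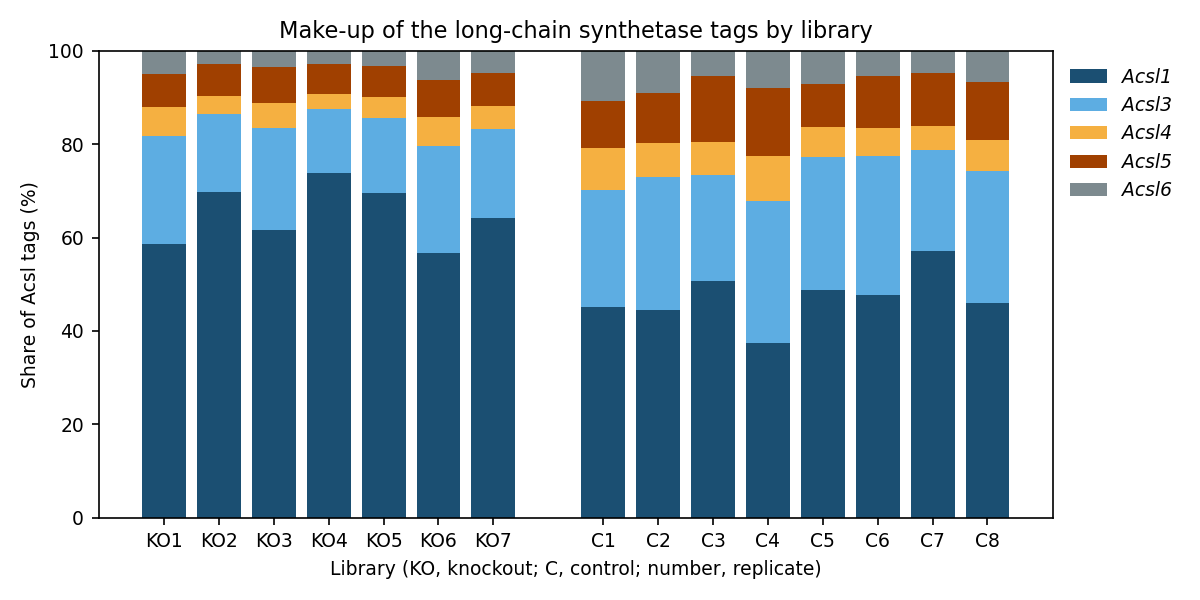
Share of each of the 5 long-chain synthetase genes in their summed tags (percent, stacked bars), with a bar for each of the 7 knockout (KO) and 8 control (C) libraries. Acsl1 takes 56.8% to 73.9% of the bar in knockout libraries and 37.4% to 57.1% in control libraries.

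Within each group, members moved in opposing sets in the libraries that stood apart. Knockout replicate 4 was the highest of 7 knockouts for Acsl1, Acsl5, Acsf2 and Acss1 and the lowest for Acsl4, Acsf3, Slc27a1 and Slc27a4. Control replicate 7 was the highest of 8 controls for Acsl1, Acsl5, Acsf2 and Acss1 and the lowest for Slc27a1 and Slc27a4. Of the 10 members Slc27a1 deviated most in both, at -1.22 in knockout replicate 4 and -0.97 in control replicate 7 (log2 units from the mean of its own group). The predicted tags of Acsf3 (70.4% GC), Slc27a1 (63.0%) and Slc27a4 (59.3%) had the highest GC content of the 10, against 29.6% for Acsf2, 33.3% for Acsl1, 48.1% for Acss1 and 51.9% for Acsl5. Acsl4 had the lowest GC content of the 10, 25.9%, and was lowest among knockouts in replicate 4. The deviation of a library from its group mean was correlated with tag GC content across 10858 genes with a predicted tag. Pearson r was -0.17 in knockout replicate 4, -0.15 in control replicate 3 and -0.14 in control replicate 7. It ranged from -0.17 to 0.16 over all 15 libraries, and genes of a library are not independent. Why knockout replicate 4 and control replicate 7 stood apart was not tested. With an offset per library that follows tag GC content, the 4 called members were again called, with log2 fold changes of 2.32 for Acsf2, 1.38 for Acss1, 1.19 for Acsl1 and 1.03 for Slc27a1. The adjusted p of Slc27a1 was then 0.00693 by edgeR.

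**Figure D4:**
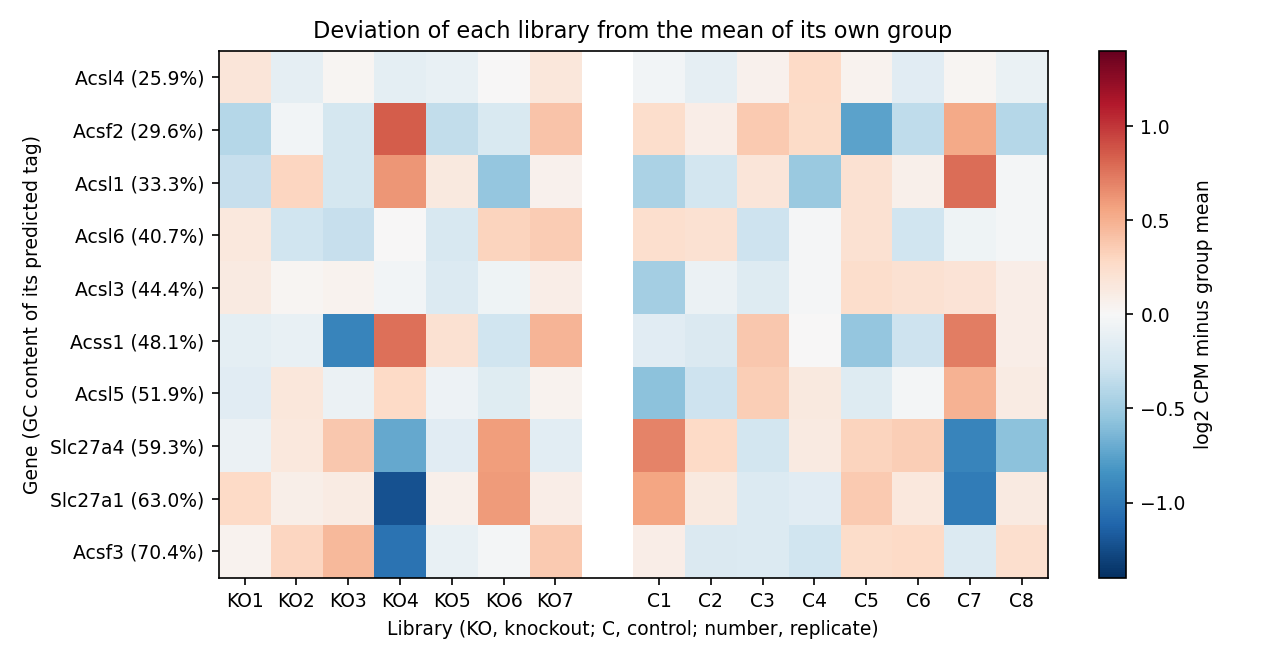
Log2 CPM of each member minus the mean of its own group (red above, blue below), for the 7 knockout (KO) and 8 control (C) libraries, with genes ordered by the GC content of their predicted tag. Slc27a1 and Slc27a4 are blue in knockout replicate 4 (-1.22 and -0.72) and control replicate 7 (-0.97 and -0.92), where Acsl1 and Acss1 are red.

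The genes that varied most like Acsf2 between mice of a group, over all 15 libraries, were the kelch-family gene Klhl30, Irak1bp1 and Sec24b, a component of the COPII vesicle coat. They were taken from 9926 genes as those whose log2 CPM followed it most closely after the group means were removed (Pearson r = 0.92, 0.91 and 0.90 over 15 libraries, and 0.87, 0.87 and 0.84 over 13 without the libraries that stood apart). These are the highest of many values, and depth and library are shared by all genes. None of them was called between the groups, with log2 fold changes of 0.08 for Klhl30, 0.09 for Irak1bp1 and -0.07 for Sec24b.

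Of 15 further synthetase genes listed by name, 7 were in the table, 4 were tested and none was called by edgeR (1 higher and 0 lower at an unadjusted p below 0.05), by DESeq2 or by limma voom. Their median log2 fold change was -0.14. Acss2, the acetate enzyme of cytosol and nucleus and thus the counterpart of Acss1, averaged 13.7 ± 9.05 CPM in knockout and 6.30 ± 4.04 CPM in control libraries. Its ranges overlapped (7.24 to 33.0 CPM in knockouts, 3.59 to 15.3 CPM in controls), and the log2 difference of 1.11 ± 0.37 did not pass (edgeR adjusted p = 0.153).

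Genes on either side of activation were read from lists chosen with earlier results of these data known. The other synthetases above and the PPAR receptors are among these lists. Of 65 genes tested, 20 rose and none fell by edgeR, where 1.67% of all tested genes were called higher. At an unadjusted p below 0.05 edgeR placed 33 higher and 2 lower, where 13.6% of all tested genes reached it in either direction. DESeq2 gave a p for 76 genes of these lists and called 24 higher and 1 lower, Cpt1b, with 3.41% of all genes called. The same shares over all genes stand beside the counts of each list below. Before activation, 3 of 7 genes of fatty acid uptake and binding rose, with a list median of 0.35. They were Fabp3, the fatty acid binding protein of muscle (log2 2.01 ± 0.18), the fatty acid receptor and carrier Cd36 (0.95 ± 0.11) and lipoprotein lipase, Lpl (0.75 ± 0.11). Of 6 genes with acyl-CoA-binding proteins Dbi rose, from which the classical cytosolic carrier of acyl-CoA is made (196 ± 62.4 CPM in knockout and 107 ± 11.5 CPM in control libraries), with a list median of 0.40.

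After activation, 7 of 8 genes of the first steps of beta-oxidation rose (median 1.23), among them Acadl, the long-chain dehydrogenase (1.58 ± 0.16), the trifunctional protein subunits Hadha (0.99 ± 0.11) and Hadhb (1.19 ± 0.18), and the very-long-chain dehydrogenase Acadvl (1.30 ± 0.24). In the carnitine shuttle 3 of 6 rose (median 0.77), namely Cpt2 (1.36 ± 0.14), the carnitine-acylcarnitine carrier Slc25a20 (1.47 ± 0.26) and carnitine acetyltransferase, Crat (0.76 ± 0.16). Hydrolysis back to free acid was represented by 7 thioesterases, of which Acot2, a mitochondrial enzyme, rose (2.31 ± 0.18; list median 0.43). Acot2 has close relatives in the genome, and how the authors assigned tags shared by such genes is not given in the sources used here. Of 10 genes of glycerolipid esterification 4 rose (median 0.37): the acyltransferases Agpat9, now named Gpat3 (23.1 ± 3.54 CPM in knockout and 8.17 ± 1.45 CPM in control libraries), Agpat2 (1.37 ± 0.26) and Gpam (0.77 ± 0.15), and Dgat2, which completes triglyceride (1.90 ± 0.22).

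Mitochondrial fatty acid synthesis and malonyl-CoA, the setting of Acsf3, gave no called gene among 9 tested by edgeR (4 higher and 0 lower at an unadjusted p below 0.05; DESeq2 called 1 higher and limma voom 0), with a median of 0.33. The smallest p was that of Mecr, the enoyl reductase of the pathway (11.5 ± 4.49 CPM in knockout and 7.33 ± 0.92 CPM in control libraries, edgeR adjusted p = 0.0753). Among 8 genes of the lipid-sensing PPAR receptors and their partners Pparg rose (32.8 ± 2.42 CPM in knockout and 24.6 ± 2.71 CPM in control libraries, log2 0.42 ± 0.11, edgeR adjusted p = 0.0447), with a list median of 0.29.

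**Figure D5:**
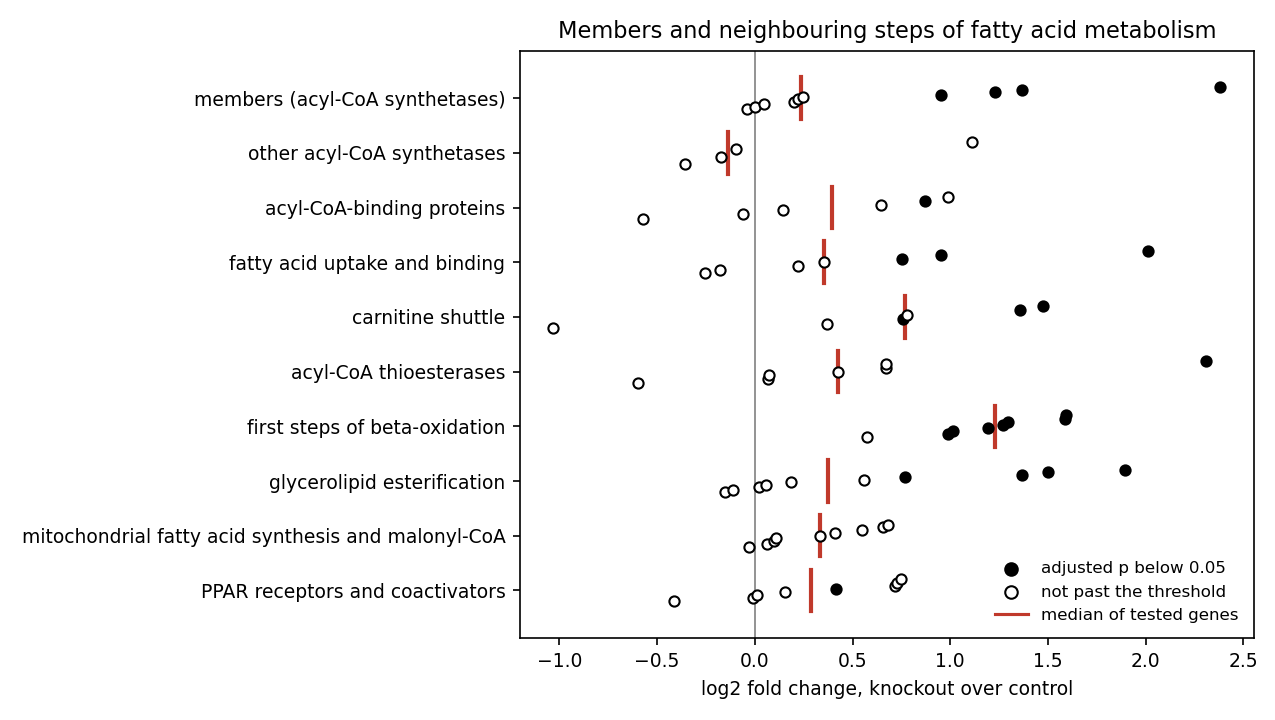
Log2 fold change of knockout over control for each tested gene of the members and of 9 lists, filled where the adjusted p was below 0.05. The lists hold neighbouring steps, the other synthetases, and the PPAR receptors with their partners. Red bars mark list medians. The median is 0.23 for the members and 1.23 for the first steps of beta-oxidation.

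Acsl1 and Slc27a1 are also known from adipocytes, so markers of other cells are set beside them. All 8 adipocyte markers were in the table, and their summed level was 905 to 1644 CPM in knockout and 864 to 1168 CPM in control libraries, most of it from Fabp4, which capillary endothelium also expresses. Adiponectin, Adipoq, averaged 28.4 ± 22.7 CPM in knockouts (14.3 to 78.8 CPM) and 28.4 ± 8.79 CPM in controls (20.7 to 42.3 CPM). Its log2 difference was 0.00 (edgeR adjusted p = 0.996). The knockout mean depends on its highest value, 78.8 CPM, and was not computed without it. Equal means of Adipoq therefore do not show equal adipocyte content. Leptin, Lep, was called lower in knockouts, at 1.27 against 4.55 CPM in controls. Adrb3 was at 0 in 3 control libraries, and the other markers of the list had counts in every library. The adipocyte sum was highest in knockout replicate 4, the library with the highest Acsl1 and, among knockouts, the lowest Slc27a1. It was second highest in knockout replicate 1 (1275 CPM), whose Acsl1 level of 154 CPM was the second lowest of the knockouts. Endothelial markers, 8 of 8 present, summed to 199 to 297 CPM in knockout and 208 to 325 CPM in control libraries, and macrophage markers, 7 of 8 present, to 30.9 to 63.4 CPM in knockout and 45.3 to 90.9 CPM in control libraries. Muscle fibre markers, 10 of 10 present, summed to 104793 to 161864 CPM in knockout and 119471 to 168798 CPM in control libraries. Of these 10, the fast troponin Tnnt3 was called lower in knockouts and 0 were called higher. The log2 fold change was positive for 2, Myh2 (0.79, edgeR adjusted p = 0.307) and Myh1 (0.64, edgeR adjusted p = 0.401), and the list median was -0.18. Fibroblast and tendon markers, 6 of 6 present, summed to 1173 to 2955 CPM in knockout and 2085 to 3751 CPM in control libraries. Schwann cell markers, 6 of 6 present, summed to 41.3 to 124 CPM in knockout and 42.4 to 126 CPM in control libraries. Their sum was highest in control replicate 7 and second highest in knockout replicate 4. Erythroid markers, 5 of 8 present, summed to 14.6 to 59.4 CPM in knockout and 17.1 to 93.2 CPM in control libraries, highest in control replicate 7. The part of other cell types in the differences of the members was not tested.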

How the data were processed

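Short 3′ tags were counted in 15 barcoded SOLiD SAGE libraries made from total RNA, per the labels' protocols. The authors deposited raw counts per gene symbol (13602 symbols; 360 empty lines were dropped). The authors also deposited normalized signal values, made by scaling the counts of each library with its own factor; the ratio of both tables varied by at most 5.4e-10 within a library. The submitters' processing notes name DESeq2 and the builds mm10 and GRCm38.p1; the aligner and the tag-to-gene step are not given in the sources used here. Groups and replicate numbers came from sample titles.

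Tests used edgeR 4.0.16 (R 4.3.3) on the raw counts (TMM, filterByExpr with a minimum count of 10, robust quasi-likelihood, group as the only term, threshold 0.05), which left 11062 genes; log2 CPM used a prior count of 2. Standard errors are the log2 fold change over the square root of F. Alternatives were RLE, library size alone, the authors' size factors, no filter, DESeq2 1.42.0, limma 3.58.1 voom, the replicate number as a block, each library left out and, chosen after seeing the data, the first surrogate variable (sva 3.50.0), an offset by tag GC content, and control replicate 7 and knockout replicate 4 left out together. Depth was 8334436 to 19397255 counts. Members and lists were chosen with earlier results of these data known. Named were all members, Cpt1b, and per list up to 4 called genes with the smallest p, or the gene with the smallest p. Adipoq, Lep, Cidec, Adrb3, Tnnt3, Myh1 and Myh2 were added after their values were seen. Symbols missing from the table were sought through a single RefSeq synonym.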

Additional observations from a re-analysis of the deposited data

Results flagged for a closer look

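Of 20 groups of member values (10 genes in knockouts and in controls), 3 held a library set off from the others, where chance gives about 1 in 20. The gap to the nearest library was 0.526 to 0.575 of the range of the group. The 20 groups share the same 15 libraries, so they are not independent and the chance rate is only a rough guide. Slc27a1 in knockout replicate 4 stood at 13.96 CPM, against 34.4 CPM in the nearest knockout. Acsl1 in control replicate 7 stood at 140.7 CPM, against 94.7 CPM in the nearest control. Acsl4 in control replicate 4 stood at 14.8 CPM, against 12.8 CPM in the nearest control.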

How the results depend on the processing

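Acsf2, Acsl1 and Acss1 kept their direction and their call in each of 25 alternatives, with adjusted p of at most 0.000425 for Acsf2, 0.0254 for Acsl1 and 0.0169 for Acss1, and log2 fold changes of at least 2.18 for Acsf2, 1.01 for Acsl1 and 1.11 for Acss1. Slc27a1 kept its direction in all 25 (0.85 to 1.23) and missed the threshold in 13, the 11 fits without 1 library named above, limma voom (adjusted p = 0.0587) and the replicate block. The number of members called was 3 or 4 in every alternative. No other member was called in any. Near-zero differences changed sign: Acsl5 to -0.075 with the first surrogate variable, Acsl6 to 0.019 with library size alone and 0.011 with the surrogate variable, and Slc27a4 to 0.057 with library size alone, 0.033 with limma voom, 0.058 with the tag GC offset and 0.29 with the surrogate variable. Without 1 library, Acsl5 ran from -0.019 to 0.13, Acsl6 from -0.11 to 0.0089 and Slc27a4 from -0.11 to 0.11. Over all genes, 240 were called; the number was 455 by DESeq2, 486 with the surrogate variable, 403 without control replicate 7 and knockout replicate 4, and 161 to 465 without 1 library, the highest without control replicate 7 and the lowest without knockout replicate 2. The cause was not tested. Called genes of the lists of neighbouring steps, other synthetases and PPAR receptors numbered 16 to 29. With the replicate block 117 genes, 3 members and 16 genes of these lists were called, and Slc27a1 had an edgeR adjusted p of 0.0964. Replicates of the same number correlated over 0.1 in 3 of 7 pairs, and 1 of 7 knockouts correlated best with its own number. Such correlations cannot tell whether libraries of the same number share a litter or a preparation. Few tags limit Acsf2 in controls, at 9 to 38 per library.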
